A study of Mus musculus with 12 samples.

Results

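Lcn2, Serpina3n, Ptx3, Cp, Cd44, Cd109, Emp1, Steap4, Tgm1 and Sphk1 are 10 genes of proteins that astrocytes are known to secrete or carry at the cell surface when they turn reactive, together with the enzymes TGM1 and SPHK1, which act at or inside the membrane. They were taken by gene symbol from a table of 54532 genes, each symbol matching 1 row. All 10 were among the 17664 genes tested, which were those above 0.5 FPKM (fragments per kilobase of gene, scaled to library depth) in at least 3 of 12 libraries. Of these, 7 (Lcn2, Steap4, Cd44, Emp1, Tgm1, Cd109 and Ptx3) had no control library above 0.5 FPKM and so passed through the treated libraries in which they were high. Counts of called members are therefore descriptions of this set.

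Reactive astrocytes are astrocytes that have changed shape, secretion and gene expression after injury, inflammation or loss of blood flow. Cytokines of the IL-6 family, which act through STAT3, and IL-1 and TNF, which act through NF-kB, are known inducers of this state. Lcn2, Steap4, Cd44, Cp and Serpina3n belong to the panel commonly called pan-reactive, and Emp1, Tgm1, Cd109, Ptx3 and Sphk1 to the panel called A2, which was described after ischemia.

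The libraries were made from mouse brain tissue. Control libraries (n = 3, replicates 1, 2 and 4) are titled PBS and labelled untreated. The other 3 groups (n = 3 each) were collected 1.5 h, 12 h and 48 h after photodynamic therapy (PDT), in which mice were given 5-aminolevulinic acid (5-ALA), a precursor of the light-absorbing pigment protoporphyrin IX, at 20 mg/kg and were lit 30 min later with a 635 nm laser at 20 J/cm2. The comparisons ask how brain transcript levels differ at each time from control and between times. Strain is given as BALB/c in some fields and C57BL/6 in others, the animals were perfused with 0.9% NaCl, and the brain region, the animals' age and the light and injection status of the control mice are not clear, since their entries carry the same protocol text as the treated ones. The libraries are not stated to come from separate animals, so p-values measure the spread between libraries. All comparisons against control share the same 3 control libraries. Libraries are numbered as in the labels, with replicates 1, 2 and 3 at 1.5 h, replicates 1 and 2 and an unnumbered library at 12 h, and replicates 1, 3 and 4 at 48 h.

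Lcn2, Cd44, Tgm1 and Emp1 are the 4 members called as changed between 12 h and 48 h by limma, though the Lcn2 call held in only 7 of 22 alternative settings. The 250 bases before their RefSeq start sites are shown on build GRCm38.p6. They lie at chr2:32387740-32387989 on the minus strand (Lcn2), chr2:102901666-102901915 on the minus strand (Cd44), chr14:55713493-55713742 on the minus strand (Tgm1) and chr6:135362681-135362930 on the plus strand (Emp1). The Cd44 stretch begins 1 base beyond the gene as the deposited table bounds it, and the other stretches lie inside the bounds of their genes. Sequences are read 5′ to 3′, and capitals mark matches to the motifs searched.
Lcn2: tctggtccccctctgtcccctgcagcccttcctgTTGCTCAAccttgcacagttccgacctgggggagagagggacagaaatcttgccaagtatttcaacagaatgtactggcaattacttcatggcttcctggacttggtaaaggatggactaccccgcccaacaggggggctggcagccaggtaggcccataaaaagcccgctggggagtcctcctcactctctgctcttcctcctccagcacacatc
Cd44: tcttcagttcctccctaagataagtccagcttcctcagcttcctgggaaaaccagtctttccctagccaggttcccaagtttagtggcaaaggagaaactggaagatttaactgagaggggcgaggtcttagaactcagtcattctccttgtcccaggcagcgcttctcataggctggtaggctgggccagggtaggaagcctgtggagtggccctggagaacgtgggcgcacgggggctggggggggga
Tgm1: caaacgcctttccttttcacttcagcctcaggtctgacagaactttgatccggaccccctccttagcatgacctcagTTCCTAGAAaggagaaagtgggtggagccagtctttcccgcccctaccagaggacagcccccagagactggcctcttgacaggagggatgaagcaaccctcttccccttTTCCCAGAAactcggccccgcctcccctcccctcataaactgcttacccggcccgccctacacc
Emp1: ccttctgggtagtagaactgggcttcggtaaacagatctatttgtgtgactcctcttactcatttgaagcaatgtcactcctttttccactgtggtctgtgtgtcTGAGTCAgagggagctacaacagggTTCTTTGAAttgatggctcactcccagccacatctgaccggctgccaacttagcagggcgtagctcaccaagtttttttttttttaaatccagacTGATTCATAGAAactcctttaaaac

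The motifs were TTCNNNGAA for STAT factors, TGANTCA for AP-1, TTGCNNAA for C/EBP, GAANNTTC for heat shock factors and the NF-kB motif, each on both strands, in 1 or more RefSeq windows per gene of 300 bases from 250 before to 50 after a start. The Tgm1 stretch held STAT matches beginning at -173 and -64 from the start site. In Emp1, AP-1 matches began at -145 and -25 and STAT matches at -120 and -22, and the AP-1 match at -25 overlapped the STAT match at -22. The Lcn2 stretch held a C/EBP match at -216, and these letters were not in the Cd44 window. Over the 9 members with a window, STAT letters stood in 4 (Steap4, Emp1, Tgm1 and Sphk1), C/EBP letters in 5, AP-1 letters in 3, NF-kB letters in 3 and heat shock factor letters in 0. Among all 32851 windows the shares were 8.30% for STAT, 10.8% for C/EBP, 7.81% for AP-1, 4.51% for NF-kB and 7.86% for heat shock factors. These shares are per window, while a member was counted for a match in any of its windows, so the units are unlike. Sphk1 had 5 windows, 2 of them with STAT letters, and Emp1 and Tgm1 had 2 each, 1 of them with STAT letters. A match describes the letters and is not a binding site measured here.

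Depth was even, with 15348579 to 17444654 reads recovered per library. A pair of libraries stood apart: mitochondrial transcripts took 12.43% and 9.14% of reads in 1.5 h replicates 1 and 3, against 4.16% to 6.14% in the other 10, and their levels fell with gene length (log2 slopes of -0.104 and -0.06 per doubling, against -0.009 to 0.041). The summed level of 12 choroid plexus markers varied within groups, from 3.58 to 445 FPKM at 1.5 h and from 34.4 to 1003 FPKM at 48 h. Gfap, the astrocyte filament gene, stood at 20.3 ± 6.97 FPKM in control (SD, n = 3) and at 162 ± 19.2 and 534 ± 97.2 FPKM at 12 h and 48 h. Astrocyte marker genes that do not define reactivity were present in every library, with the sum of 12 at 547 to 596 FPKM in control, 569 to 633 at 1.5 h, 631 to 677 at 12 h and 376 to 432 at 48 h. Of these 12, Aldh1l1, Gjb6 and Sox9 rose at 12 h, while at 48 h Aqp4, Aldh1l1 and Sox9 rose (1.44, 0.86 and 0.79, limma) and Aldoc and Ntsr2 fell (-0.74 and -1.06), with a median of -0.34 over the list. Bulk tissue cannot tell a change in the number of cells of a type from a change in RNA per cell.

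None of the 10 members was called at 1.5 h, all 10 rose at 12 h, and 8 rose at 48 h, when Steap4 and Cp did not pass. The 12 h count was 9 of the 9 members tested without 12 h replicate 1, the unnumbered 12 h library or 48 h replicate 1, since Steap4 then fell below the filter. The median log2 change of the members was 0.02, 2.17 and 2.59 at the 3 times, beside 0.016, 0.001 and -0.001 over all genes tested. At a false discovery rate of 0.05 (limma with Benjamini-Hochberg adjustment), 0.555% of genes tested changed at 1.5 h, 13.3% rose at 12 h and 7.50% rose at 48 h. Without adjustment, 1 of 10 members had a limma p under 0.05 at 1.5 h, namely Cp at 0.0459. All 3 treated libraries lay above all 3 controls for 10 members at 12 h and for 9 at 48 h, as they did for 28.2% and 21.1% of genes tested. Against the 1.5 h libraries, 10 members rose at 12 h and 9 at 48 h (16.9% and 8.91% of genes tested). Each of the 10 also passed the test of any difference among the 4 groups, as did 38.4% of genes tested. The plot of values by library shows the 2 lower groups and the 2 higher groups.

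**Figure D1:**
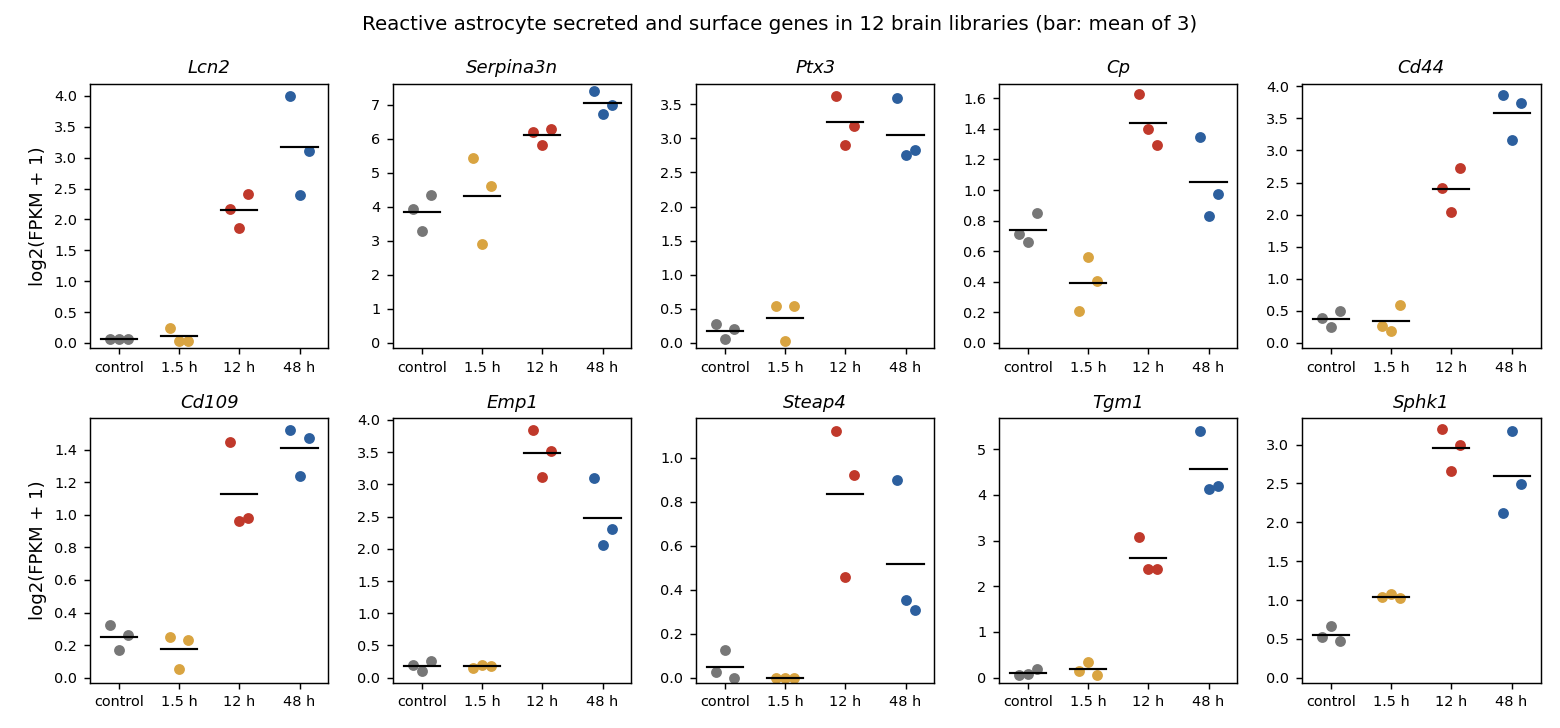
Each panel plots log2(FPKM + 1) of 1 gene on the vertical axis in the 4 groups, with a point for each of the 3 libraries of a group and a bar at their mean. All 12 h points lie above the control points in the 10 panels, and Tgm1 and Cd44 lie higher at 48 h than at 12 h while Emp1 lies lower.

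Lcn2 encodes lipocalin 2, a secreted protein that binds iron-carrying siderophores (ENSMUSG00000026822, chromosome 2, 32384633 to 32388252 on GRCm38). Its level was 0.0440, 0.0432 and 0.0436 FPKM in control replicates 1, 2 and 4 and 0.188, 0.0233 and 0.0272 FPKM in 1.5 h replicates 1, 2 and 3. It was 3.50, 2.64 and 4.33 FPKM in the 12 h libraries (replicate 1, replicate 2 and unnumbered, the order used throughout) and 14.999, 4.25 and 7.61 FPKM in 48 h replicates 1, 3 and 4. Control and 1.5 h libraries overlapped near zero, with 2 reads in each control, and every 12 h and 48 h library lay far above them. Scaled for depth, 431 reads at 12 h against 6 in control gave a ratio of 80.0 (95% exact interval 36.4 to 219, counting error only), and 1316 reads at 48 h gave 206 (94.4 to 563). The log2(FPKM + 1) change, a scale that understates the change of low genes, was 2.09 ± 0.31 at 12 h (SE, limma, adjusted p = 0.000847) and 3.10 ± 0.31 at 48 h (adjusted p = 9.95e-05).

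Serpina3n encodes a secreted serine protease inhibitor of the antichymotrypsin group (ENSMUSG00000021091, chromosome 12, 104406729 to 104414329) and had the highest level of the 10 in every group. It was at 14.2, 8.73 and 19.4 FPKM in the controls and at 42.4, 6.56 and 23.7 FPKM at 1.5 h. It reached 71.9, 55.5 and 77.1 FPKM at 12 h and 167, 105 and 126 FPKM at 48 h. The 12 h and 48 h libraries each lay above all controls, while the 1.5 h libraries lay on both sides of them. Its log2 change was 2.25 ± 0.51 at 12 h (limma, adjusted p = 0.0101) and 3.19 ± 0.51 at 48 h (adjusted p = 0.00229). At 1.5 h the change was 0.48 ± 0.51 (adjusted p = 0.535). The 2 high 1.5 h values belonged to replicates 1 and 3, the libraries with the high mitochondrial share: the change was 1.18 (adjusted p = 0.0138) without replicate 2, -0.08 without replicate 1 and -0.94 without both 1 and 3. Without replicate 2, 8080 genes were called at 1.5 h in place of 98, and the part of RNA composition in the Serpina3n values was not tested. Of the 2015 stretches of 50 bases in its transcripts, 6.90% also occur in another gene, with 0 shared with Serpina3h or Serpina3i.

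Ptx3 encodes pentraxin 3, a secreted pattern recognition protein of the innate immune system (ENSMUSG00000027832, chromosome 3, 66219910 to 66225805). Its level was 0.215, 0.0423 and 0.149 FPKM in the controls and 0.460, 0.0228 and 0.453 FPKM at 1.5 h. At 12 h it was 11.3, 6.49 and 8.05 FPKM, and at 48 h it was 11.01, 5.76 and 6.09 FPKM. The early libraries overlapped with the controls, and the 12 h and 48 h libraries overlapped with each other at a far higher level. The log2 change was 3.06 ± 0.25 at 12 h (limma, adjusted p = 1.89e-05) and 2.88 ± 0.25 at 48 h (adjusted p = 3.33e-05), and the ratio of depth-scaled reads was 63.4 (40.4 to 106) and 56.5 (36.0 to 94.2).

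Cp encodes ceruloplasmin, a copper-carrying ferroxidase that astrocytes hold as a membrane-anchored form (ENSMUSG00000003617, chromosome 3, 19957054 to 20009145). It was the only member with its 3 libraries at 1.5 h all below the controls, at 0.155, 0.474 and 0.321 FPKM against 0.640, 0.580 and 0.801 FPKM. At 12 h it was 2.08, 1.64 and 1.45 FPKM, and at 48 h 1.55, 0.777 and 0.963 FPKM. The 12 h libraries lay above all controls, and the 48 h libraries overlapped with them. Its log2 change was -0.35 ± 0.16 at 1.5 h (limma, adjusted p = 0.152; 12.0% of genes tested had all 3 libraries lower), 0.70 ± 0.16 at 12 h (adjusted p = 0.00922) and 0.31 ± 0.16 at 48 h (adjusted p = 0.241). Hps3 overlaps Cp on the opposite strand with 122 to 351 reads per library, and since strandedness is not given in the sources used here, reads of the 2 genes cannot be told apart where they overlap; Hps3 was not called at any time against control (changes of -0.28, -0.24 and 0.03). Ttr, a choroid plexus gene, was at 978 FPKM in 48 h replicate 1, the 48 h library highest in Cp, and at 31.0 and 127 FPKM in replicates 3 and 4, but at 5.54, 1.96 and 439 FPKM at 1.5 h; the part of choroid plexus tissue in the Cp values was not tested.

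Cd44 encodes the cell surface receptor for hyaluronan and osteopontin (ENSMUSG00000005087, chromosome 2, 102811141 to 102901665). Its level was 0.315, 0.184 and 0.405 FPKM in the controls and 0.207, 0.136 and 0.506 FPKM at 1.5 h. It was 4.31, 3.14 and 5.63 FPKM at 12 h and 13.5, 7.98 and 12.3 FPKM at 48 h. The controls and the 1.5 h libraries overlapped, each 12 h library lay above all of them, and each 48 h library lay above every 12 h library. The log2 change was 2.02 ± 0.21 at 12 h (limma, adjusted p = 9.43e-05) and 3.21 ± 0.21 at 48 h (adjusted p = 7.29e-06). In reads, the ratio to control was 14.4 (11.9 to 17.8) at 12 h and 37.5 (30.9 to 45.8) at 48 h.

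Cd109 encodes a surface protein of the alpha-2-macroglobulin family, held by a lipid anchor, that can bind TGF-beta (ENSMUSG00000046186, chromosome 9, 78615546 to 78716253). It was at 0.251, 0.123 and 0.199 FPKM in the controls and at 0.191, 0.0355 and 0.176 FPKM at 1.5 h. It was at 1.72, 0.952 and 0.974 FPKM at 12 h and at 1.86, 1.35 and 1.77 FPKM at 48 h. Only 12 h replicate 1 reached the range of the 48 h libraries. Its log2 change was 0.88 ± 0.15 at 12 h (limma, adjusted p = 0.00174) and 1.16 ± 0.15 at 48 h (adjusted p = 0.000526), among the smaller changes of the 10.

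Emp1 encodes epithelial membrane protein 1, a protein that spans the membrane several times (ENSMUSG00000030208, chromosome 6, 135362545 to 135383173). Its level was 0.146, 0.0764 and 0.193 FPKM in the controls and 0.111, 0.144 and 0.132 FPKM at 1.5 h. At 12 h it was 13.3, 7.64 and 10.5 FPKM, and at 48 h it was 7.54, 3.15 and 3.95 FPKM. The 12 h libraries were the highest group and lay just above the 48 h libraries, which in turn were all far above control. With a log2 change of 3.31 ± 0.24 at 12 h (limma, adjusted p = 1.02e-05), Emp1 had the largest rise of the 10 at that time on this scale, while in depth-scaled reads the ratio of Lcn2 (80.0) was higher than that of Emp1 (75.4), within overlapping intervals. At 48 h the change was 2.30 ± 0.24 (adjusted p = 0.000146), and the ratio of depth-scaled reads went from 75.4 (55.9 to 104) at 12 h to 35.4 (26.2 to 49.1).

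Steap4 encodes a membrane metalloreductase that reduces iron and copper (ENSMUSG00000012428, chromosome 5, 7960457 to 7982213). It had the lowest mean FPKM of the members in every group, but its libraries overlapped with those of the next member in control, at 12 h and at 48 h. It was at 0.0183, 0.0898 and 0 FPKM in the controls, from 1, 5 and 0 reads, and no read was counted in the 3 libraries at 1.5 h. It was at 1.18, 0.373 and 0.896 FPKM at 12 h and at 0.863, 0.277 and 0.236 FPKM at 48 h. All later libraries were above all controls, with 14 to 56 reads each. The log2 change was 0.78 ± 0.19 at 12 h (limma, adjusted p = 0.0129) and 0.47 ± 0.19 at 48 h (adjusted p = 0.137). In reads, 120 against 6 gave a ratio of 22.3 (9.93 to 61.9) at 12 h and 81 against 6 gave 12.7 (5.58 to 35.6) at 48 h. Against the 0 reads of the 1.5 h group, the lower 95% exact bound of the ratio was 28.9 for the 12 h level and 16.3 for the 48 h level. With a pseudocount of 0.1 FPKM in place of 1, Steap4 was called at 48 h as well (1.92, adjusted p = 0.043).

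Tgm1 encodes transglutaminase 1, a membrane-anchored enzyme that cross-links proteins and is best known from the outer layer of skin (ENSMUSG00000022218, chromosome 14, 55700009 to 55713926). Its level was 0.0365, 0.0538 and 0.145 FPKM in the controls and 0.104, 0.271 and 0.0452 FPKM at 1.5 h. It was 7.48, 4.19 and 4.19 FPKM at 12 h and 41.5, 16.5 and 17.3 FPKM at 48 h. Every 48 h library lay above every 12 h library, and 48 h replicate 1 was more than the other two together. The log2 change was 2.50 ± 0.31 at 12 h (limma, adjusted p = 0.000251) and 4.47 ± 0.31 at 48 h (adjusted p = 7.29e-06), which ranked 6 of 17664 genes tested by size. The ratio of depth-scaled reads was 66.9 (38.9 to 126) at 12 h and 321 (187 to 603) at 48 h. Of 10 skin keratinocyte markers, Dsg1a was at 0 in all libraries and Krt14, Ivl, Trp63 and Dsc3 stayed under 0.5 FPKM. Krt14 was listed at 0 up to 12 h and at 0.304, 0.124 and 0.0909 FPKM in 48 h replicates 1, 3 and 4, and Krt5 went from at most 0.0258 FPKM in control to 0.510, 0.373 and 0.364 FPKM. Of the 4 that were tested, Sprr1a rose at 12 h (0.97 ± 0.22, limma, adjusted p = 0.00964) and 48 h (2.49 ± 0.22, adjusted p = 4.03e-05), as Tgm1 did, and Krt10 fell at 48 h (-0.62 ± 0.14, adjusted p = 0.0141). The sum of the 10 was 6.02 to 7.05 FPKM in control, 8.20 to 13.4 at 1.5 h, 5.77 to 7.85 at 12 h and 8.56 to 14.3 at 48 h, and the part of skin cells in the Tgm1 level was not tested.

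Sphk1 encodes sphingosine kinase 1, an enzyme of the cytosol that makes the secreted lipid signal sphingosine 1-phosphate (ENSMUSG00000061878, chromosome 11, 116530925 to 116536674). It was at 0.436, 0.582 and 0.383 FPKM in the controls and at 1.05, 1.10 and 1.03 FPKM at 1.5 h. It was at 8.20, 5.32 and 6.98 FPKM at 12 h and at 3.37, 8.01 and 4.63 FPKM at 48 h. Sphk1 was the only member whose 1.5 h libraries all lay above the controls, as 14.6% of genes tested did, and 12 h and 48 h libraries overlapped. The log2 change was 0.49 ± 0.23 at 1.5 h (limma, adjusted p = 0.161), 2.40 ± 0.23 at 12 h (adjusted p = 5.06e-05) and 2.05 ± 0.23 at 48 h (adjusted p = 0.000199). In the reads themselves, the 1.5 h ratio was 2.28 (1.81 to 2.88, counting error only).

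**Figure D2:**
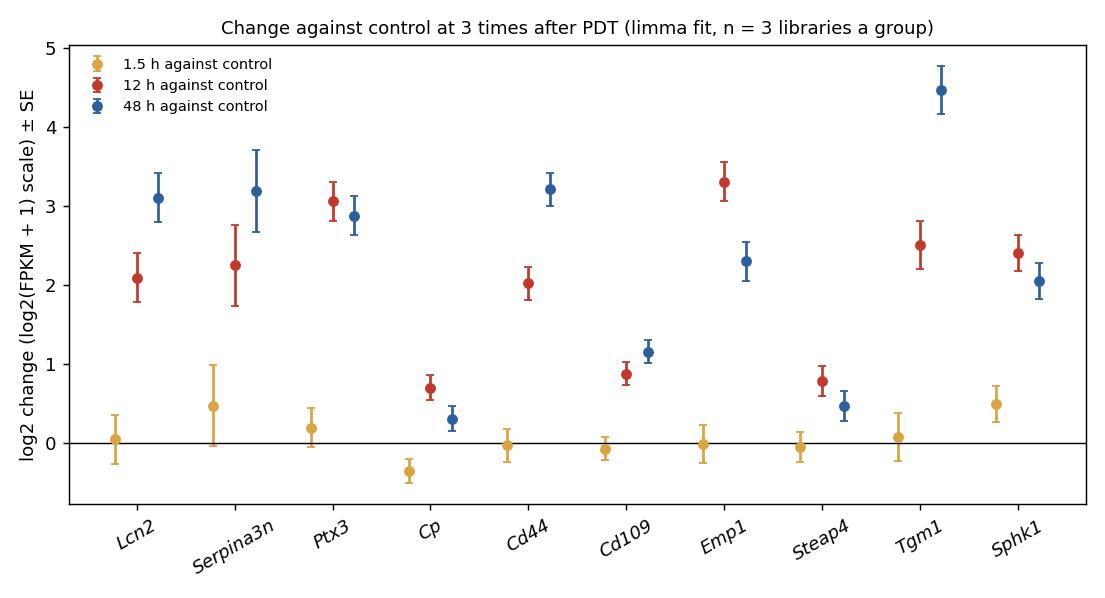
Points give the log2 change against control on the log2(FPKM + 1) scale for each of the 10 genes at 1.5 h, 12 h and 48 h, with bars of 1 SE from the fit of 12 libraries. The 1.5 h points lie between -0.35 (Cp) and 0.49 (Sphk1), and the highest point is Tgm1 at 48 h at 4.47.

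From 12 h to 48 h the members parted. Tgm1, Cd44 and Lcn2 rose, Emp1 fell, and 6 were not called, beside 5.88% of genes tested that rose and 9.73% that fell. The log2 change was 1.96 ± 0.31 for Tgm1 (limma, adjusted p = 0.00164), 1.19 ± 0.21 for Cd44 (adjusted p = 0.00351), 1.02 ± 0.31 for Lcn2 (adjusted p = 0.0481) and -1.01 ± 0.24 for Emp1 (adjusted p = 0.0173). Libraries did not overlap for Tgm1, Cd44 and Serpina3n, all higher at 48 h, or for Emp1, lower at 48 h (21.4% and 22.2% of genes tested); those of Lcn2 overlapped, since 48 h replicate 3 at 4.25 FPKM lay under the unnumbered 12 h library at 4.33. Serpina3n had a change of 0.94 ± 0.51 (adjusted p = 0.249), Cd109 of 0.28 ± 0.15, Ptx3 of -0.18 ± 0.25, Steap4 of -0.32 ± 0.19, Sphk1 of -0.36 ± 0.23 and Cp of -0.39 ± 0.16. In depth-scaled reads, the 48 h level over the 12 h level was 4.79 (4.44 to 5.18) for Tgm1, 2.59 for Cd44, 2.58 for Lcn2 and 0.469 (0.441 to 0.499) for Emp1.

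The calls for Tgm1 and Cd44 held when each of the 12 libraries was left out in turn. The Lcn2 call held in 7 of 22 alternative settings. It was lost without control replicate 1, 2 or 4, 1.5 h replicate 3, any 12 h library or 48 h replicate 1 or 4 (adjusted p from 0.0652 to 0.168), and without 48 h replicate 1 its change was 0.60. The Emp1 call was lost without 12 h replicate 1, the unnumbered 12 h library or 48 h replicate 3 or 4 (changes of -0.79 to -0.99). So the number of members changed went from 4 to 2 without 12 h replicate 1, the unnumbered 12 h library or 48 h replicate 4.

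**Figure D3:**
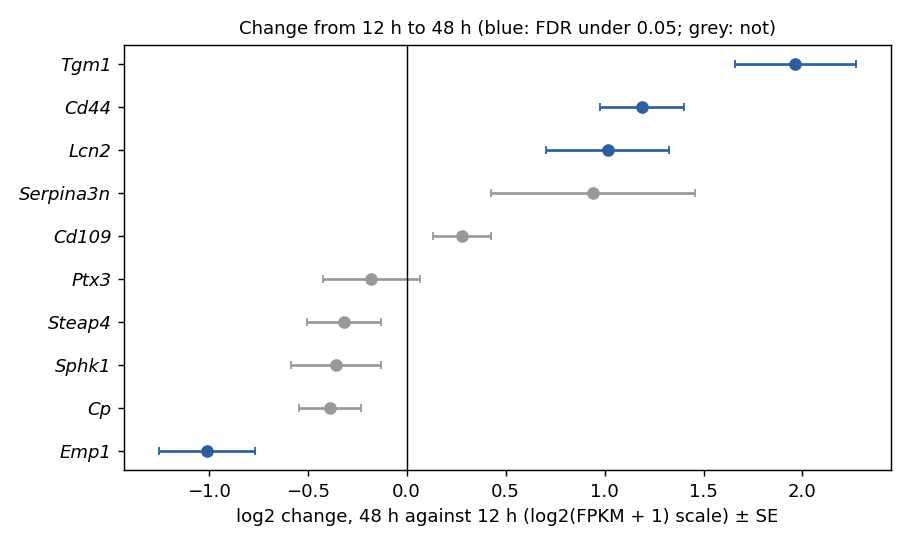
Points give the log2 change from 12 h to 48 h on the log2(FPKM + 1) scale with bars of 1 SE, ordered by size, and blue marks genes below a false discovery rate of 0.05. Tgm1 lies farthest to the right at 1.96 and Emp1 farthest to the left at -1.01.

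The order of levels among the members changed with time, on the FPKM scale, which is per length. Serpina3n made up 87.2% of the summed FPKM of the 10 in control, 90.8% at 1.5 h, 61.4% at 12 h and 66.7% at 48 h, and its libraries never overlapped with those of the next gene. In control, Cp (0.674 ± 0.114 FPKM, SD, n = 3) and Sphk1 (0.467 ± 0.103) came next, with overlapping libraries. At 12 h the next were Emp1 (10.5 ± 2.83), Ptx3 (8.62 ± 2.47), Sphk1 (6.83 ± 1.45), Tgm1 (5.29 ± 1.90), Cd44 (4.36 ± 1.25) and Lcn2 (3.49 ± 0.844), each overlapping with its neighbour, above Cp, Cd109 and Steap4. At 48 h Tgm1 (25.1 ± 14.2) came next without overlap on either side, and Cd44 (11.3 ± 2.90), Lcn2 (8.95 ± 5.50), Ptx3 (7.62 ± 2.94), Sphk1 (5.33 ± 2.40) and Emp1 (4.88 ± 2.34) followed with overlapping neighbours. Emp1 thus went from the second place at 12 h to the seventh at 48 h.

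The libraries of a group differed across many members at once. At 48 h, replicate 1 was the highest of 3 for 9 of 10 members and the lowest for Sphk1, and replicate 3 was the lowest for 8. At 12 h, replicate 2 was the lowest for 8, and in control replicate 2 was the lowest for 7. The same places were not counted over all genes tested, so these counts describe the members alone. The spread within a group, as the SD over the mean, was 61.4% for Lcn2 at 48 h and 56.7% for Tgm1, against 16.4% for Cd109 and 23.6% for Serpina3n. Over the 12 libraries, Pearson's r of log2(FPKM + 1) between pairs of members ran from 0.575 (Serpina3n and Cp) to 0.984 (Lcn2 and Cd44), and r of a member with the mean of the other 9 ran from 0.800 (Cp) to 0.992 (Ptx3). These values describe points that share the 4 groups and the libraries.

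Markers of other cells moved with some of these values. Among 15 neutrophil markers, of which Ngp, Camp, Ltf, Elane, Ly6g, Mmp8 and Cxcr2 stayed under 0.5 FPKM in all libraries, S100a8, S100a9 and Fpr1 rose at 12 h (log2 changes of 1.98, 2.81 and 0.73) and 0 of the 4 tested were called at 48 h, when Lcn2 was highest. The sum of the 15 was 2.23 to 2.59 FPKM in control, 2.43 to 21.8 at 1.5 h, 8.80 to 24.7 at 12 h and 3.50 to 6.63 at 48 h. The 21.8 was 1.5 h replicate 1, where 8 blood cell markers summed to 365 FPKM, against 14.8 and 11.8 in replicates 2 and 3. These blood cell markers summed to 0.898 to 30.2 FPKM in control, and the part of blood in the other values was not tested. Of 13 monocyte and macrophage markers, Ccr2, Plac8, F10, Ms4a7 and Itgal stayed under 0.5 FPKM in all libraries. The 4 that were tested, Lyz2, Vcan, Fn1 and Arg1, all rose at 48 h. The sum of the 13 was 8.10 to 8.77 FPKM in control, 7.19 to 9.38 at 1.5 h and 14.0 to 22.5 at 12 h. In 48 h replicates 1, 3 and 4 it was 133, 45.7 and 59.5 FPKM, of which Lyz2 made 95.2, 35.9 and 44.6 FPKM. Replicate 1 stood out in this sum, most of it Lyz2, as it did for 9 members. The part of these cells in the levels of Lcn2, Cd44, Emp1, Tgm1 and the other members was not tested. Without 48 h replicate 1, 8 of the 9 members then tested rose at 48 h.

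The 10 microglia markers went the other way at 12 h, when 6 fell and none rose, and 6 rose at 48 h. Of genes tested, 7.90% fell at 12 h, and 7.50% rose and 5.01% fell at 48 h. Of 12 endothelial markers, 5 rose and 1 fell at 12 h, and their sum went from 53.0 to 63.9 FPKM in control to 95.2 to 106 at 12 h and 89.6 to 135 at 48 h. Fibroblast and meningeal markers summed to 10.7 to 14.3 FPKM in control and 23.8 to 37.1 at 48 h, with 3 of 9 tested genes called (Col1a1, Lum and Mgp). None of 9 tested choroid plexus markers was called at any time by limma. The plot of summed marker levels gives each library.

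**Figure D4:**
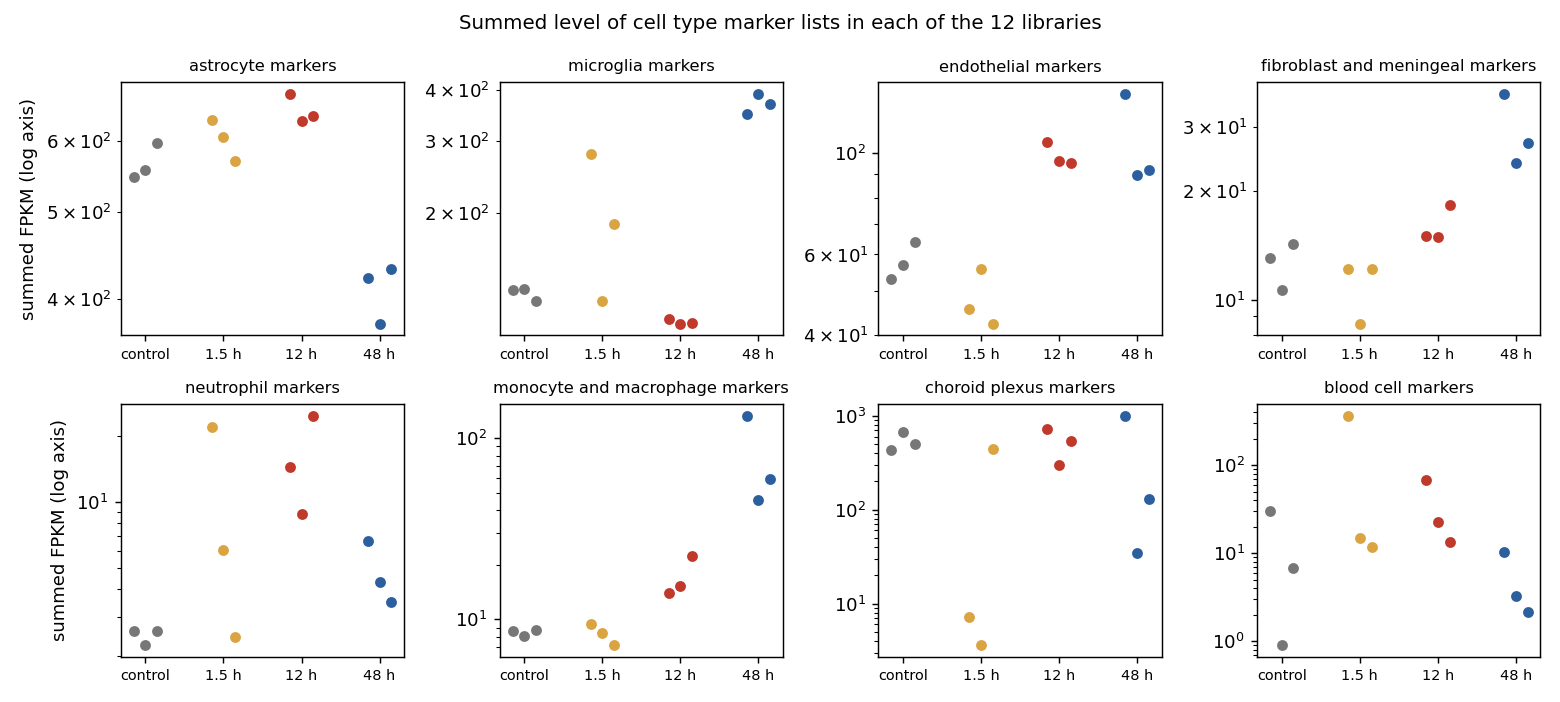
Each panel plots the summed FPKM of 1 marker list on a log axis, with a point for each library in the 4 groups. Monocyte and macrophage markers reach 133 FPKM in a 48 h library from 8.10 to 8.77 in control, neutrophil markers are highest at 12 h (24.7), and choroid plexus markers scatter from 3.58 to 1003.

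The remaining genes of the 2 astrocyte panels were compared with the members. Of genes tested, 0.555% changed at 1.5 h, 13.3% rose at 12 h and 7.50% rose at 48 h. Of the 8 other pan-reactive genes, 1 rose at 1.5 h, 7 at 12 h and 8 at 48 h, with medians of 0.03, 2.29 and 3.22. Hspb1, a small heat shock protein, was the gene called at 1.5 h (2.49 ± 0.26, limma, adjusted p = 0.00311), a time when none of the 10 members was. Timp1, a secreted inhibitor of metalloproteinases, rose by 2.75 ± 0.23 at 12 h and 5.08 ± 0.23 at 48 h. Vim, an intermediate filament gene, rose by 2.84 ± 0.23 and 4.76 ± 0.23. Of the 8 other A2 genes, 1, 7 and 7 rose at the 3 times. Ptgs2, the inducible cyclooxygenase, was the A2 gene called at 1.5 h (2.66 ± 0.39, adjusted p = 0.0209). Clcf1, a cytokine of the IL-6 family, rose by 1.66 ± 0.21 at 12 h and 2.55 ± 0.21 at 48 h and rose between the 2 times, as Tgm1 did, while Ptgs2 and Cd14 fell between them, as Emp1 did.

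Relatives in the same protein families were followed where they passed the filter. Tgm2, the widespread transglutaminase, rose by 1.80 ± 0.20 at 12 h and 1.67 ± 0.20 at 48 h, and Tgm3 fell by 0.53 and 0.71. Emp3 rose by 0.65 ± 0.16 at 12 h and 2.27 ± 0.16 at 48 h and rose from 12 h to 48 h (1.62 ± 0.16, limma, adjusted p = 9.81e-05), the direction opposite to Emp1. Pmp22, a myelin protein gene of the same family, rose by 0.92 and 0.85, and Emp2 was not called (0.41 and 0.49). Nptx2, a neuronal pentraxin, rose by 2.08 ± 0.23 at 1.5 h, 4.29 ± 0.23 at 12 h and 3.24 ± 0.23 at 48 h. Ptx3 was not called at 1.5 h, but it stood at 0.136 FPKM in control, against 16.3 for Nptx2, and this scale understates the change of low genes. The 1.5 h change of Ptx3 was 0.19, with a ratio of depth-scaled reads of 2.14 (1.18 to 3.99, counting error only). That ratio came from 15, 1 and 17 reads in 1.5 h replicates 1, 2 and 3, and replicate 2 lay below every control. Without 1.5 h replicates 1 and 3, those with the high mitochondrial share, the change was -0.148. Nptx1 and Nptxr were not called against control. The complement gene C4b and the protease inhibitor gene A2m, relatives of Cd109, rose by 1.92 and 1.29 at 12 h and 2.63 and 1.88 at 48 h.

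Serpina3h had a change of 0.37 ± 0.18 at 12 h (limma, adjusted p = 0.166) and rose by 2.58 ± 0.18 at 48 h, from 0.121 to 0.479 FPKM in control to 5.83 to 7.91 FPKM. Serpina3i rose by 0.62 ± 0.10 at 48 h. Of the STEAP genes, Steap1 rose by 0.63 ± 0.19 at 12 h, and Steap2 and Steap3 were not called. Sphk2, the other sphingosine kinase gene, had changes of 0.34 ± 0.13 and 0.04 ± 0.13 at 12 h and 48 h (adjusted p = 0.0776 and 0.865). Heph, which encodes the ferroxidase hephaestin, had changes of 0.38 and -0.04. In the lipocalin family, Rbp4 rose by 1.17 ± 0.28 at 12 h and Apod, the apolipoprotein D gene, by 1.79 ± 0.39 at 48 h, and Ptgds was not called against control.

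**Figure D5:**
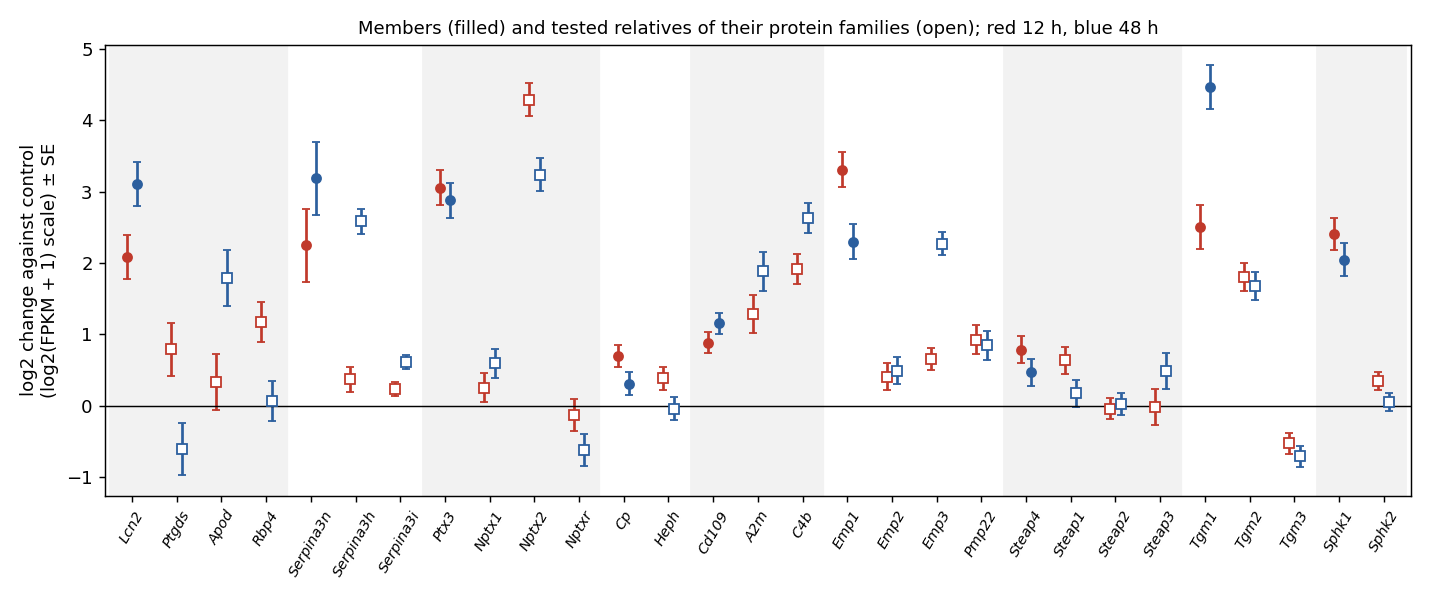
Log2 changes against control on the log2(FPKM + 1) scale, with bars of 1 SE, are plotted for members (filled) and for tested relatives of their families (open), in red at 12 h and blue at 48 h. Tgm1 lies above Tgm2 and Tgm3 at both times, Emp1 and Emp3 move in opposite directions between the times, and Nptx2 lies above Ptx3 at both. The order of Nptx2 and Ptx3 belongs to this scale, which understates the change of low genes. Mean FPKM in control, at 12 h and at 48 h was 0.136, 8.62 and 7.62 for Ptx3 and 16.3, 336 and 168 for Nptx2.

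Genes around the members were counted from fixed lists. For this list and those that follow, the shares over all genes tested were 13.3% risen and 7.90% fallen at 12 h. At 48 h the shares were 7.50% and 5.01%. For CD44 and its ligands, Spp1, which encodes osteopontin, rose from 1.77 ± 1.51 FPKM in control to 143 ± 52.1 at 12 h and 587 ± 465 at 48 h (7.55 ± 0.51 at 48 h, limma, adjusted p = 7.29e-06), with 1109, 220 and 431 FPKM in 48 h replicates 1, 3 and 4. Of 13 tested genes of this list, 3 rose and 1 fell at 12 h, and 4 rose and 1 fell at 48 h. Tnfaip6, which encodes a hyaluronan-binding protein, rose by 3.95 ± 0.32 at 12 h and had a change of -0.13 at 48 h. Bgn, a proteoglycan gene, rose by 1.45 ± 0.22 at 48 h, and Hapln1, which encodes a link protein of the brain matrix, fell by 0.91 and 0.86.

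Of 14 tested sphingosine 1-phosphate genes, 6 rose at 12 h, and 4 rose and 2 fell at 48 h. The receptor gene S1pr3 rose by 1.38 ± 0.26 at 12 h and 2.95 ± 0.26 at 48 h and rose between the times (limma, adjusted p = 0.00224), while the receptor gene S1pr1 rose by 0.44 at 12 h and fell by 0.56 at 48 h. The transporter gene Spns2, whose protein exports the lipid, rose by 1.31 ± 0.20 at 12 h and had a change of 0.41 at 48 h. The lyase gene Sgpl1, whose protein degrades it, rose by 0.54 and 0.91. Of 14 copper and iron genes tested, 4 rose and 1 fell at 12 h, and 4 rose at 48 h. Hmox1, the heme oxygenase gene, rose by 3.51 ± 0.59 and 3.20 ± 0.59, and Trf, the transferrin gene, by 1.93 ± 0.32 at 48 h. The lipocalin 2 receptor gene Slc22a17 was not called against control (-0.01 and -0.37), and the other receptor gene, Lrp2, was below the filter.

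Signals known to induce reactive astrocytes were listed apart. Of 24 tested genes of IL-6 family and STAT3 signalling, 16 rose at 12 h, and 12 rose and 1 (Cntfr) fell at 48 h, with medians of 1.52 and 0.62. From 12 h to 48 h, 2 of the 24 rose and 9 fell, beside 5.88% and 9.73% of genes tested. Socs3, a feedback inhibitor and STAT3 target, was at 28.3 ± 6.70 FPKM at 12 h and 15.1 ± 5.48 at 48 h, from 1.01 ± 0.156 in control, and fell from 12 h to 48 h (-0.89 ± 0.25, limma, adjusted p = 0.0362). Cebpd, a transcription factor gene, rose by 2.70 ± 0.33 at 12 h. Of 16 genes of IL-1, TNF and NF-kB signalling, 15 rose at 12 h and 7 at 48 h, and 8 fell from 12 h to 48 h. Tnfrsf1a, the TNF receptor 1 gene, rose by 2.41 ± 0.22 and 2.40 ± 0.22.

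The genes most like each member over the 12 libraries were taken by Pearson's r of log2(FPKM + 1) among 13708 tested genes with a mean of at least 1 FPKM. Lcn2 was most like Lgals3 (0.991) and Msr1 (0.991), a galectin and a scavenger receptor gene. Cd44 was most like Vim (0.992) and S100a11 (0.991), and Tgm1 most like Clcf1 (0.993) and Apobec1 (0.991). Emp1 was most like Osmr (0.989), the oncostatin M receptor gene, and Sbno2 (0.989). Ptx3 was most like Tnfrsf1a (0.994) and H19 (0.989), and Serpina3n most like Cd9 (0.983) and Cnn3 (0.968). For Cd109 the genes were Trim47 (0.977) and Anxa2 (0.976), for Cp Ano6 (0.988) and Swap70 (0.980), for Sphk1 Klhl2 (0.970) and Ipo5 (0.966), and for Steap4 Slc39a14 (0.961), a zinc and iron transporter gene. The mean of the 10 members was most like Flnc (0.993) and Anxa2 (0.990). These values are given without a test, since the points share groups and libraries.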

How the data were processed

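RNA sequencing of mouse brain gave 12 libraries in 4 groups of 3, grouped by GEO labels. Reads were aligned with Bowtie 0.12.2 to mm8, per the submitters' processing notes, while the gene coordinates of the deposited table matched GRCm38 (98.33% of 54495 genes shared with GENCODE M21 had the same start and end). The counting tool, annotation and strandedness are not given in the sources used here. The authors deposited 1 table of FPKM values per gene and library, with gene length in bases in the deposited column. A column numbered 4 at 12 h matched no title of that group and was used as an unnumbered library.

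Reads recovered from the FPKM steps were whole for 100% of values (tolerance 0.05), with 15348579 to 17444654 per library, and the authors' scaling totals differed from these sums, so the deposited values carry a further normalization between libraries. Read ratios were scaled by those totals, and their 95% exact intervals cover counting error only. Libraries differed by more than counting noise (variance over noise of 8.30 to 258.5, r 0.919 to 0.987 within groups), so none was counted as a copy.

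Genes above 0.5 FPKM in at least 3 libraries were tested with limma 3.58.1 (R 4.3.3) with trend, on log2(FPKM + 1), in 1 fit of all 12 libraries with 8 residual degrees of freedom, with Benjamini-Hochberg adjustment at 0.05. An exact two-sided permutation test of 3 against 3 libraries cannot go below p = 0.1. The procedure was run on simulated data with 1 fixed spread, in which changes were planted only in genes above 0.5 FPKM in control. Most members lay below that level in control, so the simulation does not cover them. Sequences are from RefSeq (GRCm38.p6), where 9 of 10 members had a window. Descriptive values used Python 3.11.15, numpy 2.4.6, pandas 2.3.3 and scipy 1.17.1. Named were all members, their tested family relatives, at most the 2 largest rises and falls of each list at each time, and the 2 genes most like each member, of which 1 is not reported here; Il6, Lif, Slc22a17, Ttr, Fpr1, Arg1, Lum and others given only as part of a count were named after their values were seen. Members and lists were chosen with earlier results of these data known. Alternatives were other pseudocounts, filters, scalings, models and left-out libraries, and those of the test among the 4 groups were added after seeing the data.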

Additional observations from a re-analysis of the deposited data

Results flagged for a closer look

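For 4 members the change against control differed between 12 h and 48 h by limma's test of the difference itself. The difference, 48 h minus 12 h on the log2(FPKM + 1) scale, was 1.96 for Tgm1, 1.19 for Cd44, 1.02 for Lcn2 and -1.01 for Emp1. In that order, the calls held in 22, 21, 7 and 17 of 22 alternative settings.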

How the results depend on the processing

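Of 1315 alternative values for single members, 1250 kept their direction and their side of the threshold, 35 lost a call, 7 gained one and 23 changed sign, 22 of these at 1.5 h against control, where no member was called. With the length trend removed, the 1.5 h change was -0.163 for Lcn2, 0.127 for Cd44, 0.093 for Emp1, -0.07 for Tgm1, 0.09 for Cd109 and -0.01 for Ptx3. Without 1.5 h replicates 1 and 3 it was -0.028 for Lcn2, -0.935 for Serpina3n, 0.009 for Emp1 and -0.148 for Ptx3, and with quantile normalization 0.025 for Cd44 and 0.043 for Emp1. Leaving out 1 library in turn, the 1.5 h change ran from -0.026 to 0.082 for Lcn2, -0.082 to 1.18 for Serpina3n, -0.149 to 0.054 for Cd44, -0.05 to 0.024 for Emp1 and -0.004 to 0.137 for Tgm1, and the change of Ptx3 from 12 h to 48 h from -0.443 to 0.015. The cause was not tested. The number of members changed then ran from 0 to 1 at 1.5 h and from 2 to 5 between 12 h and 48 h, and at 12 h from 9 to 10. Over 11 pairs of libraries with a shared replicate number, r of deviations ran from -0.264 to 0.156. The unnumbered 12 h library was in no pair. These values do not settle whether replicate numbers pair the libraries. In the replicate block the unnumbered library had a level of its own, so it did not enter the changes estimated. With the replicate block, 1 member (Tgm1) in place of 4 was called between 12 h and 48 h, 8 members in place of 10 were called at 12 h (Steap4 0.67, adjusted p = 0.127, and Cp 0.77, adjusted p = 0.0798, by limma), the 1.5 h change was 0.059 for Cd44 and 0.053 for Emp1, and genes called fell from 3737 to 1321 at 12 h, 2209 to 725 at 48 h and 2757 to 470 between 12 h and 48 h. Scaling to each library's own read total put the median change of all genes at -0.131 at 1.5 h and at 0.125 between 12 h and 48 h. Depth limits the ratios of Steap4 and Lcn2 to control, which rest on 6 control reads each.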

Other observations

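Of the 12 genes of the A1 panel, the astrocyte panel described after inflammation, 10 were tested, and 1, 6 and 7 of them rose at 1.5 h, 12 h and 48 h by limma at a false discovery rate of 0.05, with median log2 changes of 0.14, 0.64 and 1.10. Over all genes tested, 0.555% changed at 1.5 h, 13.3% rose at 12 h and 7.50% rose at 48 h. Srgn, which encodes a secreted proteoglycan core protein, was the one called at 1.5 h (0.84 ± 0.15) and rose by 2.50 ± 0.15 at 12 h and 2.10 ± 0.15 at 48 h. Gbp2, an interferon-induced GTPase gene, rose by 1.13 and 1.17, and Serping1, the C1 inhibitor gene, by 0.60 and 1.25. Il6 was listed at 0 in all control and 1.5 h libraries, was at 2.13 ± 0.579 FPKM at 12 h (SD, n = 3) and at 0.213 ± 0.197 at 48 h, and Lif, another cytokine of its family, was at 1.92 ± 0.559 and 1.87 ± 0.538.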
